A study of Mus musculus with 32 samples.

Results

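Prostaglandin synthesis was described through 7 genes, chosen by symbol from the 21899 genes of the deposited expression table: Ptgs2, Ptgs1, Ptges, Ptges2, Ptges3, Pla2g4a and Ptgds. All 7 were present, each as a single row. Ptgs2 had been singled out because its level in these same libraries differed with LPS and with light, so its values are given as a description, with no test. The other 6 genes were taken for their place in the pathway, but with earlier results of these data known. Their choice was thus not blind to these libraries, which limits what their p-values can show.

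The study measured polyadenylated RNA by sequencing in primary astrocytes from mice, glial cells taken directly from tissue and kept in culture, and its title names the STAT5A/SOCS3 axis. The 32 libraries fall into 8 groups of 4: LPS+PBM, LPS, PBM and Control, each at 4 h and at 24 h. LPS is lipopolysaccharide, a bacterial cell wall component that sets off inflammatory signalling, and PBM is photobiomodulation, exposure of cells to low-power light. LPS+PBM cells received both, LPS cells and PBM cells received 1 of them, and Control cells neither. The sources used here give neither the LPS dose, the wavelength and dose of the light and its order relative to LPS, nor the strain and age of the animals. Nothing in the labels ties the replicates of a group to separate cultures, so p-values measure only the spread among these libraries, which may be technical.

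Prostaglandins are lipid mediators made from arachidonic acid, which phospholipases release from membranes. Cyclooxygenases turn it into prostaglandin H2, and terminal synthases turn that into prostaglandin E2, prostaglandin D2 and others. In glia and other cells, inflammatory stimuli classically induce cyclooxygenase-2 and microsomal prostaglandin E synthase together, and the prostaglandin E2 they make acts in fever, pain and blood flow.

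Values are FPKM, fragments scaled to transcript length and to the mapped fragments of the library, so levels of different genes can be set side by side per length. The low values came in steps that stood for 130757 to 143843 fragments per library (median 137286), inferred from the values and not stated by the authors. At that depth, 3 fragments correspond to 20.9 to 22.9 FPKM for a transcript of 1 kb, and proportionally less for a longer one. Astrocyte markers were detected, with Gfap at a mean of 39.5 FPKM and Aqp4 at 26.7 FPKM over the 32 libraries. Some of them were listed at 0 in part of the libraries: S100b in 24, Fgfr3 in 8, Aldoc in 5 and Slc1a2 in 1. Markers of other cells were detected too, among them the smooth muscle and myofibroblast genes Acta2 (943 FPKM) and Tagln (551 FPKM), the collagen gene Col1a2 (729 FPKM) and the macrophage gene Cd68 (74.5 FPKM), while the microglial P2ry12 was listed at 0 in 28 libraries. In such mixed bulk samples, fewer cells of a type and less RNA per cell cannot be told apart.

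The genes lie on 3 chromosomes of GRCm38, the assembly also called mm10. Ptgs2 (ENSMUSG00000032487, chr1:150100031-150108227, plus strand) and Pla2g4a (ENSMUSG00000056220, chr1:149829618-149961290, minus strand) lie head to head on chromosome 1. Ptgds (ENSMUSG00000015090, chr2:25466709-25470046, minus strand), Ptges (ENSMUSG00000050737, chr2:30889471-30929863, minus strand), Ptges2 (ENSMUSG00000026820, chr2:32395896-32405772, plus strand) and Ptgs1 (ENSMUSG00000047250, chr2:36230426-36252272, plus strand) share chromosome 2. Ptges3 (ENSMUSG00000071072, chr10:128058954-128077272, plus strand) stands alone on chromosome 10. An exon of Ptgs1 overlaps Gm43621 on the other strand, and the strand used in counting is not given, so reads of these genes cannot be told apart. GENCODE also annotates a processed pseudogene, Ptges3-ps. Whether it shares reads with Ptges3 was not tested, so the Ptges3 values are uncertain.

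The promoters of Ptgs2 and Ptges are shown because these were the members that were high together under LPS. Each run holds 250 bases before the RefSeq transcription start and 50 bases after it on the gene's own strand (build GRCm38.p6), at chr1:150099781-150100080 on the plus strand for Ptgs2 and chr2:30903248-30903547 on the minus strand for Ptges. The Ptges start used lies inside the longer GENCODE gene span. Capitals mark matches to the motifs searched.
Ptgs2 promoter: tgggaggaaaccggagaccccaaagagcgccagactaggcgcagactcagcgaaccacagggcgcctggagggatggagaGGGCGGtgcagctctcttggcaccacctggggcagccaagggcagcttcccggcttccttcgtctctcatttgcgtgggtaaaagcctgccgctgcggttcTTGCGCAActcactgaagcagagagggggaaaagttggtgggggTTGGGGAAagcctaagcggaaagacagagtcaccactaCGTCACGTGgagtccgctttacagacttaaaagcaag
Ptges promoter: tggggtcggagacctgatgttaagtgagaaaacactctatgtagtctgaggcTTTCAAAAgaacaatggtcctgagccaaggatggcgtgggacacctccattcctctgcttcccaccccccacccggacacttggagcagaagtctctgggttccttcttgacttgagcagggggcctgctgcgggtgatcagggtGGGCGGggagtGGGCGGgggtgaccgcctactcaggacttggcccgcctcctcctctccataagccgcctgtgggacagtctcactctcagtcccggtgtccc

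The motifs were searched on both strands. The TATA box was searched as TATAAA, the cyclic AMP response element as TGACGTCA and its shorter core as CGTCA. The E-box was searched as CACGTG, the AP-1 motif as TGANTCA and the C/EBP motif as TTNNGNAA. The GC box was searched as GGGCGG, the EGR motif as GCGNGGGCG, and kappaB by its consensus. The Ptgs2 window held the core of the cyclic AMP element, which overlaps an E-box just after the start, at bases 13 to 17 and 16 to 21. These letters occur in 20.9% and 7.17% of the 32544 promoters of the same length. It also held the palindromic C/EBP match TTGCGCAA at bases -69 to -62, a second C/EBP match at -25 to -18, and a GC box at -170 to -165. The Ptges window held GC boxes at -53 to -48 and at -42 to -37 and a C/EBP match on the other strand at -198 to -191. GC boxes occur in 35.9% and C/EBP letters in 40.7% of the promoters, so the letters shared by the pair are common ones. In neither window were the letters of the TATA box, the full cyclic AMP element, AP-1, EGR or kappaB found, which describes these windows only.

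Among the enzymes, Ptgs2 and Ptges were the members whose levels followed LPS. Both were several-fold higher in LPS and LPS+PBM cells at both times, with no overlap between libraries with and without LPS. Their values under light were not alike. At 24 h Ptgs2 stood lower in PBM than in Control cells without overlap, while the Ptges libraries overlapped. Libraries did not overlap there, in either direction, for 2.95% of all genes tested. Between LPS+PBM and LPS cells at 4 h, Ptgs2 stood higher and Ptges lower. Neither gene's libraries overlapped there, which held for 3.83% of all genes tested. Ptgs2 was not tested, and Ptges did not pass the test in any comparison of light. Pla2g4a, Ptgs1, Ptges2, Ptges3 and Ptgds did not pass in any of the 15 comparisons.

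Ptgs2 encodes cyclooxygenase-2, the inducible cyclooxygenase. Over the 32 libraries it averaged 516 FPKM, above 99.7% of the genes in the table, and it was represented by 61 to 608 fragments per library. At 4 h it stood at 856, 998, 1009 and 941 FPKM in LPS+PBM cells and at 837, 721, 763 and 800 FPKM in LPS cells. It stood at 329, 277, 260 and 264 FPKM in PBM cells and at 223, 278, 273 and 332 FPKM in Control cells. Every library with LPS was thus above every library without it, and every LPS+PBM library was above every LPS library.

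At 24 h Ptgs2 stood at 798, 835, 729 and 787 FPKM in LPS+PBM cells and at 687, 676, 640 and 819 FPKM in LPS cells. It stood at 108, 99.9, 120 and 132 FPKM in PBM cells and at 235, 239, 214 and 239 FPKM in Control cells. The LPS+PBM and LPS libraries overlapped at this time, and all 4 PBM libraries were below all 4 Control libraries.

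**Figure D1:**
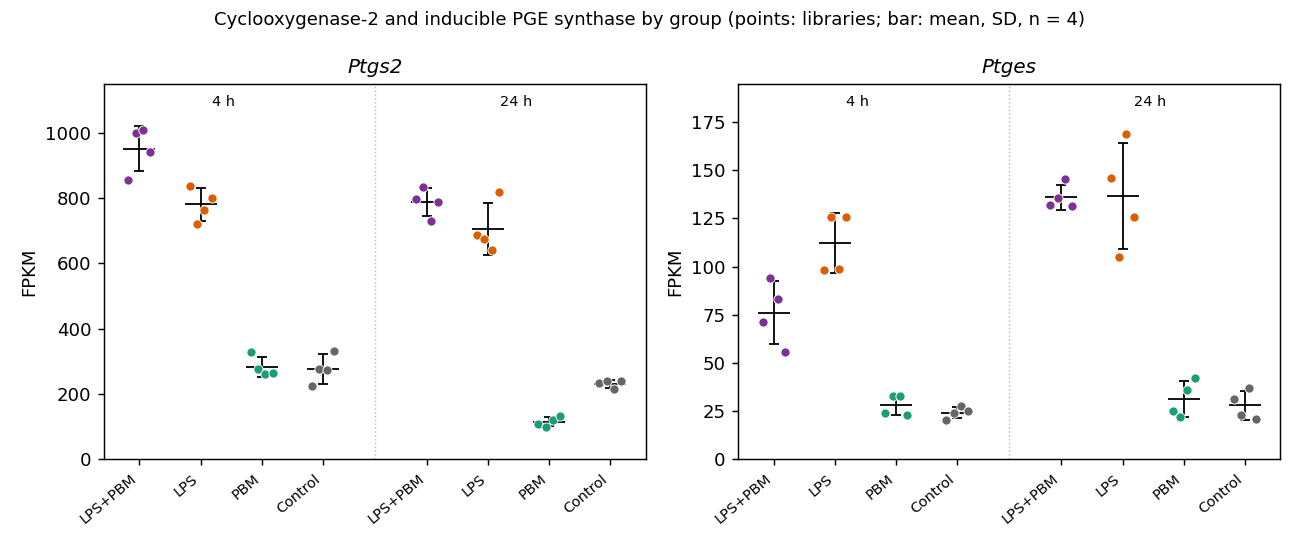
FPKM of Ptgs2 (left) and Ptges (right) in each library, by treatment at 4 h and 24 h, with group mean and SD (n = 4). For both genes the LPS+PBM and LPS libraries lie above all PBM and Control libraries, and for Ptgs2 the PBM libraries at 24 h, at 99.9 to 132 FPKM, lie lowest of all groups.

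In order of means, Ptgs2 was highest in LPS+PBM cells at 4 h (951 ± 70.0 FPKM, SD, n = 4 here and for the group means that follow), with no library overlapping the next group. LPS+PBM cells at 24 h (787 ± 43.8), LPS cells at 4 h (780 ± 49.7) and LPS cells at 24 h (705 ± 78.4) followed and overlapped one another. PBM cells at 4 h (283 ± 31.5), Control cells at 4 h (277 ± 44.7) and Control cells at 24 h (232 ± 11.9) formed the next level, in which neighbours overlapped. PBM cells at 24 h (115 ± 13.8) were lowest, with no overlap.

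As ratios of means, Ptgs2 was 2.82-fold higher in LPS than in Control cells at 4 h (log2 fold change 1.51 ± 0.12, SE of the limma fit on log2(FPKM + 1)) and 3.05-fold higher at 24 h (1.60 ± 0.11). Between LPS+PBM and PBM cells, which are different libraries from those, it was 3.37-fold higher at 4 h (1.75 ± 0.12) and 6.85-fold higher at 24 h (2.77 ± 0.11). The PBM mean beneath the ratio at 24 h was itself lower than the Control mean. Between LPS+PBM and LPS cells the ratio was 1.22 at 4 h (0.28 ± 0.12) and 1.12 at 24 h (0.16 ± 0.11).

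Between PBM and Control cells Ptgs2 had a ratio of 1.02 at 4 h (0.04 ± 0.12) and 0.497 at 24 h (-1.01 ± 0.11). The interaction, which is the LPS difference under light minus that without light, was 0.25 ± 0.17 at 4 h and 1.17 ± 0.16 at 24 h on the log2 scale. Libraries did not overlap for 7.28% and 7.94% of all genes tested between LPS and Control cells, for 8.25% and 8.01% between LPS+PBM and PBM cells, for 3.83% between LPS+PBM and LPS cells at 4 h, and for 2.95% between PBM and Control cells at 24 h. Since Ptgs2 was chosen for these differences, they describe it and test nothing.

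With time, Ptgs2 in PBM cells was lower at 24 h than at 4 h, with a ratio of 0.407 (log2 fold change -1.29 ± 0.11) and no overlap. In LPS+PBM cells it was also lower at 24 h without overlap, by a smaller step (-0.27 ± 0.11). In LPS cells (-0.15 ± 0.11) and Control cells (-0.24 ± 0.11) the libraries of the 2 times overlapped. In PBM cells the summed markers of fibroblasts and leptomeninges stood at 2227 to 2642 FPKM at 24 h, against 1698 to 1851 FPKM at 4 h. The collagen genes Col1a2, Col1a1 and Col3a1 made up most of this sum. The sum was also higher at 24 h without overlap in Control cells (2071 to 2386 FPKM, against 1709 to 2037 FPKM). The same held in LPS and LPS+PBM cells, and the part of these markers was not tested. Libraries of both times did not overlap for 5.28% of genes in PBM cells and 7.86% in LPS+PBM cells. The Ptgs2 libraries of a group scattered by 5.15% to 16.2% of the mean, where fragment counting alone would give 4.16% to 11.8%.

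Ptgs1 encodes cyclooxygenase-1, the constitutive cyclooxygenase. It was low, at 11.0 FPKM on average, and rested on 2 to 9 fragments per library, with 14 of the 32 libraries at 3 fragments or fewer. At 4 h its libraries ranged over 7.34 to 15.5 FPKM in LPS+PBM cells, 5.24 to 17.0 in LPS cells, 4.85 to 18.0 in PBM cells and 7.30 to 17.8 in Control cells. At 24 h they ranged over 4.87 to 9.71 FPKM in LPS+PBM cells, 4.89 to 17.9 in LPS cells, 7.30 to 10.2 in PBM cells and 9.75 to 23.5 in Control cells. Groups next to each other in order of means overlapped. At 24 h all LPS+PBM libraries lay below all Control libraries, by less than the worth of 1 fragment, and this pair was not tested.

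Its largest fitted difference within a time was that between LPS and Control cells at 24 h (8.87 ± 6.16 FPKM in LPS cells and 16.9 ± 5.73 FPKM in Control cells, log2 fold change -0.98 ± 0.46, adjusted p = 0.371). Fragment counting alone gives single libraries of a group a scatter of 39.2% to 57.7% of the mean, so changes within that scatter were not detectable at this depth. Per length, the FPKM of Ptgs2 at 4 h was 65.2 to 128 times that of Ptgs1 in the LPS+PBM libraries, 42.5 to 146 times in LPS, 18.3 to 54.5 times in PBM and 15.6 to 45.5 times in Control libraries. At 24 h it was 86.0 to 150 times in LPS+PBM, 35.7 to 161 times in LPS, 9.82 to 18.0 times in PBM and 9.08 to 24.5 times in Control libraries. Each of these ratios rests on the 2 to 9 fragments of Ptgs1.

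Ptges encodes microsomal prostaglandin E synthase-1, the inducible enzyme that makes prostaglandin E2 from the product of cyclooxygenase-2. At 4 h it stood at 71.5, 93.9, 83.1 and 55.8 FPKM in LPS+PBM cells and at 98.3, 126, 98.9 and 126 FPKM in LPS cells. It stood at 24.2, 32.9, 32.6 and 22.9 FPKM in PBM cells and at 20.5, 23.9, 27.8 and 24.9 FPKM in Control cells. Libraries with LPS lay above all libraries without it, and the LPS+PBM libraries lay below all LPS libraries.

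At 24 h Ptges stood at 132, 136, 146 and 131 FPKM in LPS+PBM cells and at 146, 105, 169 and 126 FPKM in LPS cells. It stood at 24.9, 22.0, 36.2 and 42.1 FPKM in PBM cells and at 31.2, 23.0, 37.0 and 21.0 FPKM in Control cells. LPS+PBM and LPS libraries overlapped at this time, as did PBM and Control libraries.

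Ptges rose with LPS in each of the 4 comparisons that test it. It averaged 112 ± 15.7 FPKM in LPS cells and 24.3 ± 3.02 FPKM in Control cells at 4 h, 4.62-fold higher (log2 fold change 2.16 ± 0.23, adjusted p = 6.24e-06). It averaged 137 ± 27.5 FPKM in LPS cells and 28.0 ± 7.43 FPKM in Control cells at 24 h, 4.87-fold higher (2.26 ± 0.25, adjusted p = 1.00e-05). It was the only one of the 6 members tested that passed at either time, against 2.23% of all genes tested at 4 h and 2.56% at 24 h. Of the 6, Ptgds had 3 fragments over all libraries, Ptgs1 2 to 9 per library and Ptges2 0 to 16. Their not passing says little, here and in the counts that follow.

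Under light, Ptges averaged 76.1 ± 16.3 FPKM in LPS+PBM cells and 28.1 ± 5.34 FPKM in PBM cells at 4 h, 2.70-fold higher (1.40 ± 0.23, adjusted p = 0.00122). At 24 h it averaged 136 ± 6.51 FPKM in LPS+PBM cells and 31.3 ± 9.44 FPKM in PBM cells, 4.35-fold higher (2.13 ± 0.25, adjusted p = 1.81e-05). Again 1 of the 6 members passed at each time, against 2.63% and 2.7% of all genes tested.

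With LPS, the summed level of the 12 astrocyte markers, of which at most 1 was at 0 in a group, was lower without overlap at 4 h (171 to 250 FPKM in LPS cells, 261 to 388 FPKM in Control cells) and at 24 h (170 to 238 FPKM in LPS cells, 335 to 500 FPKM in Control cells). Between LPS+PBM and PBM cells the same sum was higher at 4 h (305 to 357 FPKM in LPS+PBM cells, 198 to 282 FPKM in PBM cells) and lower at 24 h (137 to 206 FPKM in LPS+PBM cells, 238 to 338 FPKM in PBM cells). The 15 microglial markers, of which at most 2 were at 0 in a group, summed to 271 to 469 FPKM in LPS cells and 457 to 595 FPKM in Control cells at 4 h, and to 346 to 422 FPKM in LPS cells and 571 to 662 FPKM in Control cells at 24 h. Under light they summed to 397 to 441 FPKM in LPS+PBM cells and 358 to 548 FPKM in PBM cells at 4 h, and to 248 to 437 FPKM in LPS+PBM cells and 509 to 682 FPKM in PBM cells at 24 h.

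The 10 markers of fibroblasts and leptomeninges, of which at most 2 were at 0 in a group, summed to 1304 to 1648 FPKM in LPS cells and 1709 to 2037 FPKM in Control cells at 4 h, and to 1995 to 2300 FPKM in LPS cells and 2071 to 2386 FPKM in Control cells at 24 h. Under light they summed to 1207 to 1400 FPKM in LPS+PBM cells and 1698 to 1851 FPKM in PBM cells at 4 h, and to 1780 to 2078 FPKM in LPS+PBM cells and 2227 to 2642 FPKM in PBM cells at 24 h. Over the 32 libraries Col1a2 averaged 729 FPKM, Col1a1 515, Col3a1 376 and Dcn 186, while Igf2, the next highest on this list, averaged 61.9. Slc6a13 was listed at 0 in all 32. The fibroblast sum thus describes mostly collagen genes and says little of leptomeningeal cells. The 10 endothelial and mural markers, of which at most 3 were at 0 in a group, overlapped at 4 h, with 1518 to 2026 FPKM in LPS cells and 1677 to 2052 FPKM in Control cells, and 1392 to 1913 FPKM in LPS+PBM cells and 1512 to 2027 FPKM in PBM cells. At 24 h they did not overlap, with 1033 to 1059 FPKM in LPS cells and 1579 to 1671 FPKM in Control cells. Under light they stood at 880 to 1196 FPKM in LPS+PBM cells and 1357 to 1763 FPKM in PBM cells, again without overlap. Over the 32 libraries Acta2 averaged 943 FPKM and Tagln 551 FPKM, while Flt1, the highest of the others on this list, averaged 12.3 FPKM. The sum thus describes Acta2 and Tagln rather than endothelial cells. The part of cell composition in the Ptges and Ptgs2 values was not tested.

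Light alone did not move Ptges past the threshold. Its log2 fold change between PBM and Control cells was 0.20 at 4 h (95% interval -0.29 to 0.68, adjusted p = 0.983) and 0.14 at 24 h (-0.37 to 0.66, adjusted p = 0.975). By limma, 0 of the 6 members tested passed at either time, with 0 at an unadjusted p under 0.05 and 0 by limma-voom, against 0.0453% of all genes at 4 h and 0.113% at 24 h. The summed astrocyte markers ranged over 238 to 338 FPKM in PBM cells and 335 to 500 FPKM in Control cells at 24 h, where Ptgs2 was lower in PBM cells, and the summed microglial markers over 509 to 682 FPKM in PBM cells and 571 to 662 FPKM in Control cells. Their part in the lower Ptgs2 was not tested.

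Between LPS+PBM and LPS cells at 4 h, Ptges averaged 76.1 ± 16.3 FPKM in LPS+PBM cells and 112 ± 15.7 FPKM in LPS cells, a ratio of 0.678. The fitted log2 fold change was -0.57 ± 0.23 (95% interval -1.05 to -0.08), with an adjusted p of 0.569, and did not pass. By limma, 0 of the 6 members and 0% of all genes tested passed in this comparison. At an unadjusted p under 0.05 there were 997 genes, of which 1, Ptges, was among those 6, and limma-voom passed 10 genes and 0 members. At 24 h the Ptges difference was 0.02 (95% interval -0.50 to 0.53, adjusted p = 1), and 0 of the 6 members passed, with 0 at an unadjusted p under 0.05 and 0 by limma-voom, against 0.00753% of all genes.

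The interaction of LPS and light for Ptges was -0.77 ± 0.33 at 4 h (adjusted p = 0.710) and -0.12 ± 0.35 at 24 h (adjusted p = 0.985). By limma and by limma-voom, 0 of the 6 members passed at either time, with 2 members at an unadjusted p under 0.05 at 4 h (Ptges and Pla2g4a) and 0 at 24 h. Of all genes tested, 0.0302% passed at 4 h and 0.0527% at 24 h. At an unadjusted p under 0.05 there were 855 of 13247 genes at 4 h and 703 of 13278 at 24 h. At 4 h the summed astrocyte markers stood at 305 to 357 FPKM in LPS+PBM cells and at 171 to 250 FPKM in LPS cells, and their part in the Ptges and Ptgs2 differences there was not tested.

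**Figure D2:**
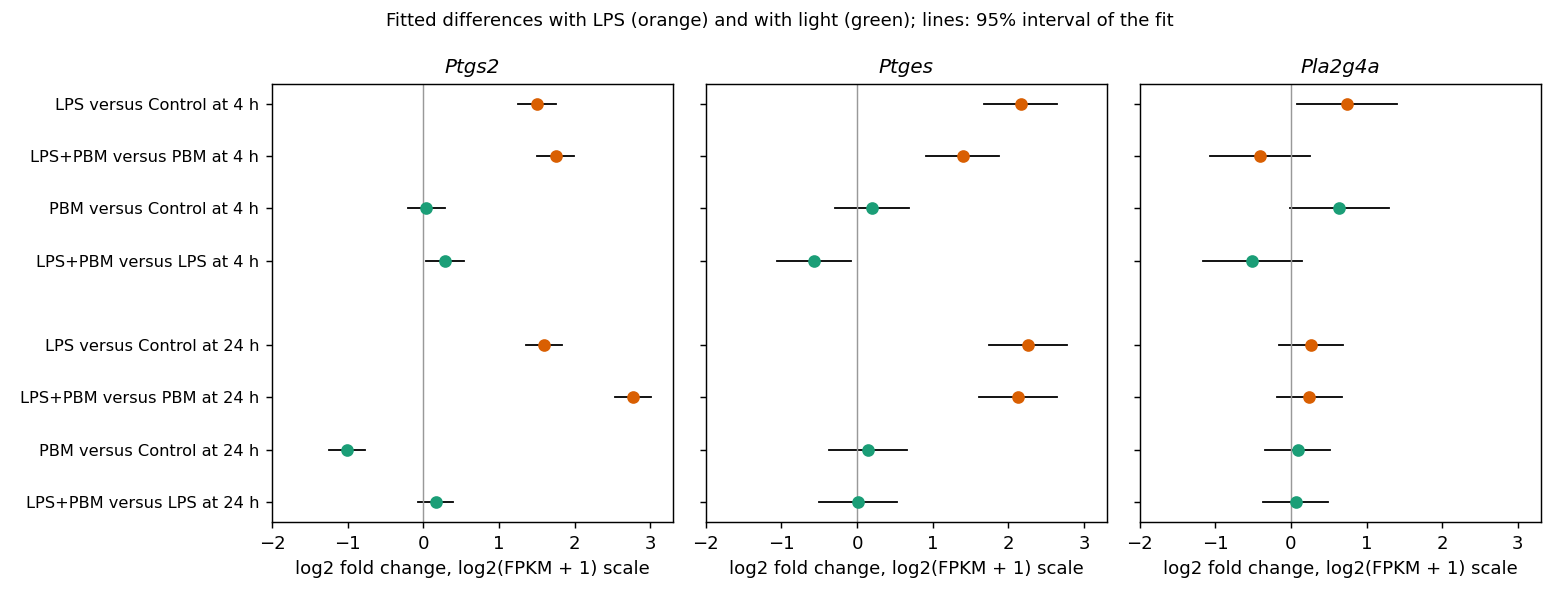
Fitted log2 fold changes of Ptgs2, Ptges and Pla2g4a on the log2(FPKM + 1) scale for the 4 comparisons of LPS (orange) and of light (green) at each time, with 95% intervals of the fit. The LPS points of Ptgs2 and Ptges lie between 1.40 and 2.77, and the light points of both genes lie nearer to 0, that of Ptgs2 between PBM and Control cells at 24 h, at -1.01, being the farthest from it. Intervals of Ptgs2, which was chosen for these differences, show the spread of the fit only.

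Ptgs2 and Ptges stood in different proportions across the groups. These ratios are a description, since Ptgs2 was chosen for its differences with LPS and light in these libraries. Per library, the FPKM of Ptgs2 was 12.9 ± 2.72 times that of Ptges in LPS+PBM cells and 7.08 ± 1.27 times in LPS cells at 4 h, and the range of 10.6 to 16.9 in LPS+PBM cells did not overlap that of 5.73 to 8.52 in LPS cells. It was 10.4 ± 2.65 times in PBM cells and 11.4 ± 1.48 times in Control cells at 4 h. At 24 h it was 5.80 ± 0.53 times in LPS+PBM cells, 5.36 ± 1.34 times in LPS cells, 3.83 ± 0.71 times in PBM cells and 8.77 ± 2.57 times in Control cells. The PBM range of 3.13 to 4.54 at 24 h lay below the Control range of 5.78 to 11.4. Between those cells the ratio of means was 0.497 for Ptgs2 and 1.12 for Ptges, so this gap mostly restates the Ptgs2 difference.

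**Figure D3:**
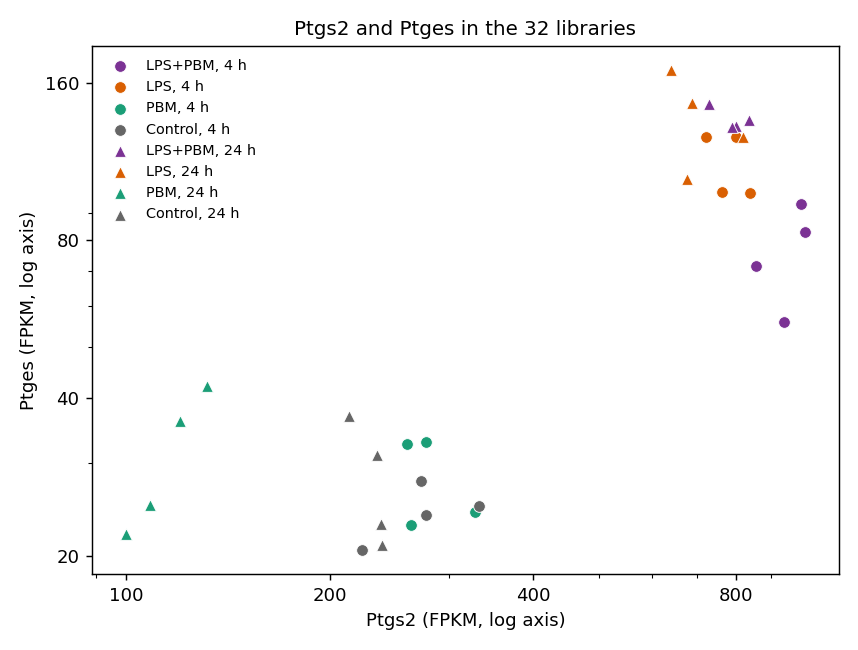
Ptges against Ptgs2 in the 32 libraries, both in FPKM on log axes, with circles for 4 h and triangles for 24 h. Libraries with LPS fill the upper right; LPS+PBM libraries at 4 h stand to the right of and below LPS libraries at 4 h, and PBM libraries at 24 h stand at the far left.

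Across the 32 libraries the log2(FPKM + 1) values of Ptgs2 and Ptges had a Pearson r of 0.83, and after subtraction of group means an r of 0.14, given as a description. Most of their shared variation therefore lay between groups.

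With time, Ptges in LPS+PBM cells was higher at 24 h (136 ± 6.51 FPKM) than at 4 h (76.1 ± 16.3 FPKM), 1.79-fold (log2 fold change 0.86 ± 0.23, adjusted p = 0.0293), with no overlap. This was 1 of the 6 members, against 3.01% of all genes tested. The call was lost without LPS+PBM replicate 1 or 4 at 4 h, and without any 1 of the 4 LPS+PBM libraries at 24 h, and the adjusted p ranged over 0.000800 to 0.122 across all alternatives. The summed fibroblast markers, which were mostly collagen genes, were higher at 24 h (1780 to 2078 FPKM) than at 4 h (1207 to 1400 FPKM) in these cells. The summed astrocyte markers were lower (137 to 206 FPKM at 24 h, 305 to 357 FPKM at 4 h). So were the summed endothelial and mural markers, which were mostly Acta2 and Tagln (880 to 1196 FPKM at 24 h, 1392 to 1913 FPKM at 4 h). Their part was not tested.

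In LPS cells Ptges differed by 0.27 between 24 h and 4 h (95% interval -0.19 to 0.73, adjusted p = 0.730), in PBM cells by 0.12 (-0.34 to 0.58, adjusted p = 0.941) and in Control cells by 0.17 (-0.29 to 0.63, adjusted p = 0.904). By limma, 0 of the 6 members passed in each of these, with 0 at an unadjusted p under 0.05 and 0 by limma-voom, against 1.33%, 1.05% and 1.11% of all genes. The LPS difference at 24 h minus that at 4 h was 0.10 for Ptges (-0.56 to 0.75, adjusted p = 0.992), and 0 of the 6 members passed by limma or by limma-voom, with 0 at an unadjusted p under 0.05, against 0.617% of all genes.

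Ptges2 encodes microsomal prostaglandin E synthase-2, a membrane-associated enzyme described as constitutive. It averaged 5.05 FPKM over all libraries and rested on 0 to 16 fragments per library, with 19 libraries at 3 fragments or fewer. At 4 h it was listed at 5.99, 0, 5.94 and 4.23 FPKM in LPS+PBM cells, and at 5.76, 2.79, 1.51 and 5.95 FPKM in LPS cells. It was listed at 4.43, 0, 7.46 and 22.4 FPKM in PBM cells and at 19.8, 4.39, 1.45 and 4.21 FPKM in Control cells. Single libraries of the PBM and Control groups stood far above the rest.

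At 24 h Ptges2 ranged over 3.02 to 7.01 FPKM in LPS+PBM cells, 4.35 to 5.90 in LPS cells, 1.40 to 4.41 in PBM cells and 1.40 to 4.52 in Control cells. The difference between LPS+PBM and PBM cells was 1.13 ± 0.54 (adjusted p = 0.396) and that between LPS and Control cells 0.74 ± 0.54 (adjusted p = 0.633). The values were too sparse to place any group apart.

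Ptges3 encodes the HSP90 co-chaperone p23, also known as cytosolic prostaglandin E synthase. It stood at 56.6 FPKM on average and at 32.6 to 82.8 FPKM in single libraries, with the uncertainty named above. Its means at 4 h were 62.5 ± 14.4 FPKM in LPS+PBM cells, 47.6 ± 9.92 in LPS cells, 54.7 ± 18.0 in PBM cells and 67.9 ± 12.1 in Control cells. At 24 h they were 63.0 ± 13.4 FPKM in LPS+PBM cells, 51.7 ± 11.8 in LPS cells, 56.4 ± 11.8 in PBM cells and 48.9 ± 13.1 in Control cells. Neighbouring groups overlapped throughout, and the difference between LPS and Control cells was -0.51 ± 0.27 at 4 h (adjusted p = 0.485) and 0.09 ± 0.25 at 24 h (adjusted p = 0.951).

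Ptgds encodes lipocalin-type prostaglandin D synthase, an abundant product of the meninges and choroid plexus. It was listed at 0 in 29 of the 32 libraries. The exceptions were 8.97 FPKM in 1 LPS library at 4 h, 9.59 FPKM in 1 PBM library at 4 h and 9.41 FPKM in 1 PBM library at 24 h, each worth about 1 fragment. It passed the filter on low values through those single fragments, so its fitted differences carry no information.

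Pla2g4a encodes cytosolic phospholipase A2 alpha, which frees arachidonic acid for the cyclooxygenases. Its values at 4 h were 65.6, 73.0, 44.0 and 64.4 FPKM in LPS+PBM cells and 119, 53.6, 57.9 and 152 FPKM in LPS cells. It stood at 104, 61.8, 74.2 and 90.8 FPKM in PBM cells and at 49.7, 38.2, 50.7 and 73.3 FPKM in Control cells. The 4 LPS libraries fell into a high and a low pair, with an SD of 50.3% of the mean where fragment counting would give 16.3%, and all groups overlapped.

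At 24 h Pla2g4a averaged 89.9 ± 5.23 FPKM in LPS+PBM cells, 85.9 ± 2.55 in LPS cells, 77.2 ± 16.1 in PBM cells and 73.0 ± 20.5 in Control cells. The LPS and LPS+PBM libraries were close together, at 83.4 to 97.5 FPKM. Between LPS and Control cells the log2 fold change was 0.74 ± 0.31 at 4 h (adjusted p = 0.331) and 0.27 ± 0.20 at 24 h (adjusted p = 0.640). Between PBM and Control cells it was 0.64 ± 0.31 at 4 h (adjusted p = 0.939), and between LPS+PBM and LPS cells at 4 h it was -0.51 ± 0.31 (adjusted p = 0.755).

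Its interaction at 4 h, -1.15 ± 0.44 (adjusted p = 0.647), was larger in size than that of Ptges but did not pass. In LPS+PBM cells it was higher at 24 h than at 4 h without overlap (0.56 ± 0.27, adjusted p = 0.336), and did not pass either. Libraries did not overlap for 7.86% of all genes tested in that comparison.

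**Figure D4:**
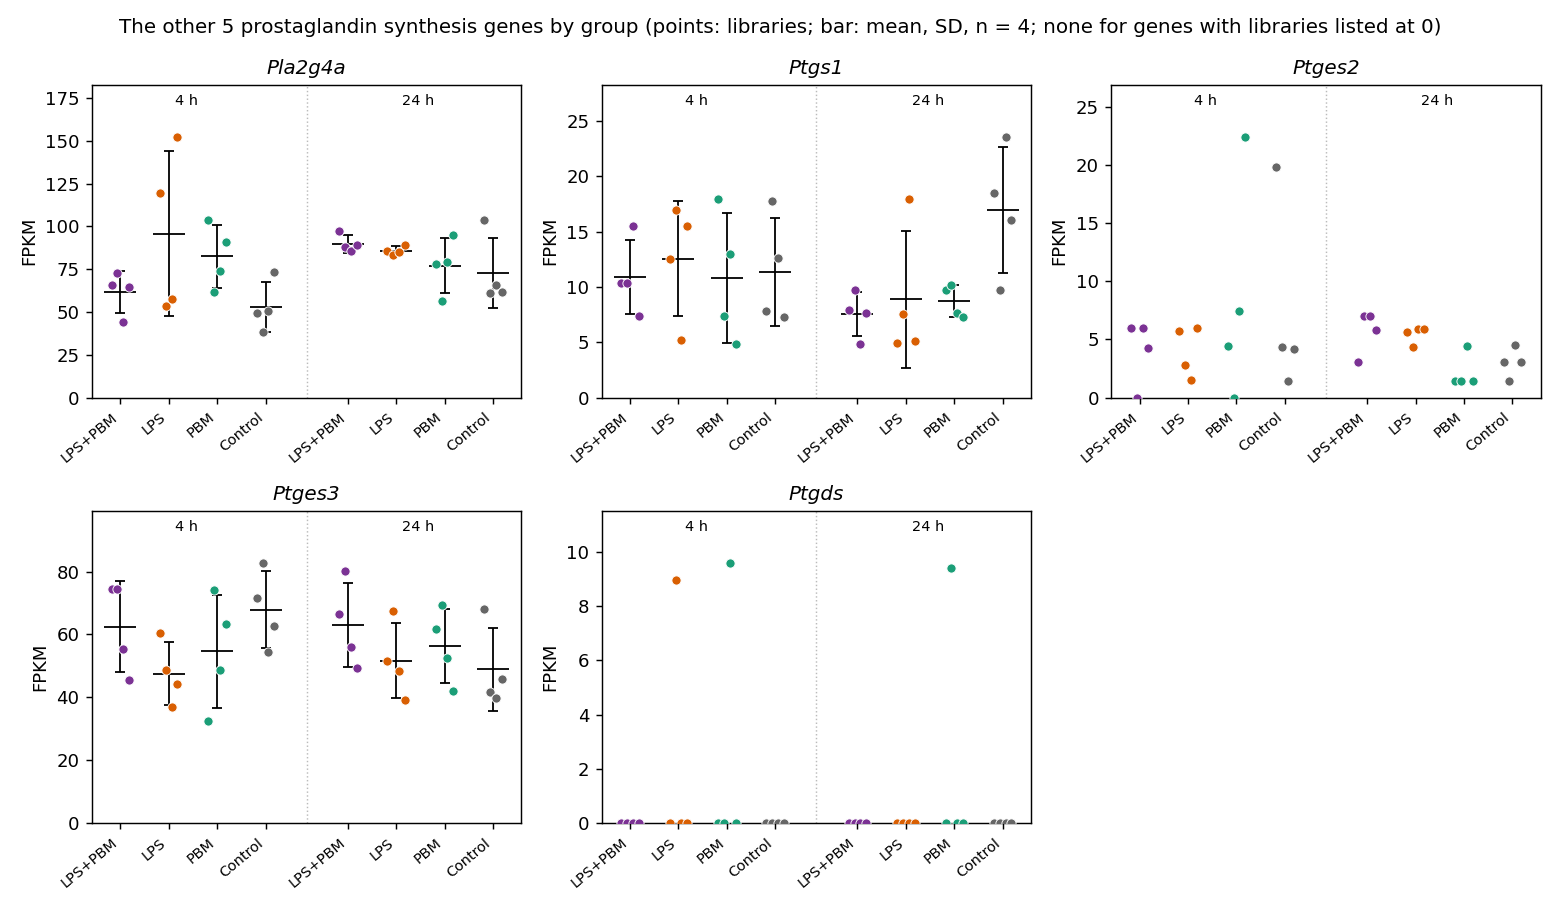
FPKM of Pla2g4a, Ptgs1, Ptges2, Ptges3 and Ptgds in each library by treatment and time, each on its own axis, with group mean and SD (n = 4) for the genes with no library listed at 0. Groups overlap in most panels, and Ptgds lies at 0 in all but 3 libraries.

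The wider prostanoid pathway was followed through 57 further symbols, of which 55 were in the table. Of these, 42 were tested at 4 h, 41 at 24 h and 43 between times. At 4 h, 0 of 42 passed by limma between LPS and Control cells, where 2.23% of all genes passed. The median log2 fold change was -0.09, against -0.07 for all genes tested. At an unadjusted p under 0.05 there were 6 of the 42, against 1599 of the 13247 genes tested. Between LPS+PBM and PBM cells at 4 h 0 of 42 passed as well (median -0.20, against -0.16 for all genes), where 2.63% of all genes passed. There 5 of the 42, against 1879 of 13247 genes, stood at an unadjusted p under 0.05.

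At 24 h, 1 of 41 rose between LPS and Control cells (median -0.12, against -0.05 for all genes), where 2.56% of all genes passed. At an unadjusted p under 0.05 there were 12 of the 41, against 1764 of the 13278 genes tested. In LPS+PBM cells 2 of 41 rose relative to PBM cells (median 0.12, against -0.08 for all genes), where 2.7% of all genes passed. There 6 of the 41, against 1688 of 13278 genes, stood at an unadjusted p under 0.05. The shares that passed are near the background. The unadjusted share between LPS and Control cells was above that of all genes, and the list was not tested as a set. The genes that passed were Akr1c18, a hydroxysteroid dehydrogenase of the aldo-keto reductase family, and Acsl4, an acyl-CoA synthetase that prefers arachidonic acid. Akr1c18 stood at 12.0, 13.2, 17.5 and 18.4 FPKM in LPS cells, against 6.34 FPKM in 1 Control library and 0 in the other 3 (log2 fold change 3.29 ± 0.79, adjusted p = 0.0291). It stood at 6.27, 12.1, 29.0 and 29.1 FPKM in LPS+PBM cells, against 5.83 FPKM in 1 PBM library and 0 in the other 3 (3.40 ± 0.79, adjusted p = 0.0215). In all 4 LPS libraries at 4 h it was listed at 0, and its difference between times in LPS cells passed (4.01 ± 0.89, adjusted p = 0.0111).

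Akr1c18 also rose between 4 h and 24 h in LPS+PBM cells (3.36 ± 0.89, adjusted p = 0.0290), where the libraries at 4 h were listed at 0 except for 1 at 6.70 FPKM. Acsl4 stood at 20.5, 21.1, 26.7 and 29.4 FPKM in LPS+PBM cells at 24 h, against 1.48, 4.23, 4.26 and 14.5 FPKM in PBM cells (2.14 ± 0.53, adjusted p = 0.0313). The microsomal glutathione S-transferase Mgst1 rose between 4 h and 24 h in LPS+PBM cells (4.24 ± 1.03, adjusted p = 0.0147), with 42.7, 42.8, 44.5 and 67.1 FPKM at 24 h and, at 4 h, 45.7 FPKM in 1 library and 0 in the other 3. Akr1c18 rested on 10 fragments over the LPS libraries at 24 h.

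The size of these changes depended on the setting, and the highest values for Akr1c18 and Mgst1 came with a pseudocount of 0.1. Over the alternatives the log2 fold change of Akr1c18 ranged over 2.15 to 5.74 between LPS and Control cells, 2.34 to 5.85 between LPS+PBM and PBM cells, 2.56 to 7.24 between times in LPS cells and 2.29 to 5.80 between times in LPS+PBM cells. That of Acsl4 ranged over 1.74 to 2.62 and that of Mgst1 over 2.70 to 6.71. Across the alternatives the adjusted p ranged over 0.00593 to 0.149 for Akr1c18 between LPS and Control cells, 0.00590 to 0.105 for Akr1c18 and 0.00655 to 0.182 for Acsl4 between LPS+PBM and PBM cells, and 0.000283 to 0.0650 for Mgst1. Between times it ranged over 0.00372 to 0.154 for Akr1c18 in LPS cells and 0.00804 to 0.118 in LPS+PBM cells. Without any 1 library other than Control replicate 2, the Akr1c18 call between LPS and Control cells was lost, and without any 1 library other than PBM replicate 4, so was that of Acsl4. The Akr1c18 call between LPS+PBM and PBM cells was lost without LPS+PBM replicate 2 or 3 or PBM replicate 2, 3 or 4, and that of Mgst1 without LPS+PBM replicate 1, 3 or 4 at 4 h.

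Between PBM and Control cells, 0 of 42 pathway genes passed by limma at 4 h and 0 of 41 at 24 h. Of all genes, 0.0453% and 0.113% passed. At an unadjusted p under 0.05 there were 5 and 3 of the list, against 700 of 13247 and 790 of 13278 genes. The same counts of 0 passed between LPS+PBM and LPS cells, against 0% and 0.00753% of all genes. There 0 and 1 of the list stood at an unadjusted p under 0.05, against 997 of 13247 and 683 of 13278 genes. The prostacyclin synthase gene Ptgis averaged 77.5 FPKM and the prostaglandin F synthase gene Akr1b3 averaged 114 FPKM over all libraries. The hematopoietic prostaglandin D synthase gene Hpgds averaged 3.10 FPKM, the thromboxane synthase gene Tbxas1 was above 0 in 5 libraries, and Hpgd, which inactivates prostaglandins, was above 0 in 8.

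Receptor messages were near the limit of detection. Ptger4, the EP4 receptor for prostaglandin E2, was the highest of the 10 receptor genes, at 4.54 FPKM on average and above 0 in 27 libraries. In LPS+PBM cells at 4 h it averaged 5.05 ± 1.20 FPKM, and it ranged over 4.54 to 9.21 FPKM in LPS cells, 0 to 8.88 in PBM cells and 2.29 to 10.7 in Control cells. Ptger2, the EP2 receptor, was above 0 in 5 libraries, and Ptger3, the EP3 receptor, was listed at 0 in all 32.

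Genes with the most similar pattern were sought among the 4110 genes that averaged 20 FPKM or more, by Pearson correlation of log2(FPKM + 1) over the 32 libraries, which share treatment groups. For Ptgs2 these were the EGF family ligand Ereg (0.97), the collagenase Mmp13 (0.96), the macrophage growth factor Csf1 (0.94), the itaconate enzyme Acod1 (0.94) and the chemokine Ccl2 (0.94). For Ptges they were the cationic amino acid transporter Slc7a2 (0.95), the pentraxin Ptx3 (0.95), the protease inhibitor Timp1 (0.94), inducible nitric oxide synthase Nos2 (0.94) and the chemokine Ccl20 (0.94). The lists share no gene, but they are short and their values lie close together, so this depends on the cut. For Ptges3 the highest value was 0.58 (Lman2) and for Pla2g4a 0.54 (Psmb8), well below those of the LPS-responsive pair.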

How the data were processed

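RNA sequencing libraries of 32 primary astrocyte samples were analysed from the gene table the authors deposited. Its values are FPKM with 2 decimals, scaled by the authors to transcript length and library size. Per the labels' protocols, Trizol RNA was reverse transcribed with oligo-dT and template switching and amplified by PCR; no molecular identifiers are named, so fragment counts cover counting error only. The submitters' processing notes name HISAT2, RSEM, StringTie 1.3.1, Bowtie2 2.2.8, fastp 0.18.0 and build mm10. Neither the tool behind the FPKM values nor the strand setting is given in the sources used here. GENCODE M21 (GRCm38) gave coordinates for 99.58% of the gene IDs.

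The limma test (limma 3.58.1, R 4.3.3, with intensity trend and robust variances) was run on log2(FPKM + 1), which understates changes of low genes, over genes averaging 1 FPKM or more in any fitted group: 13247 genes at 4 h, 13278 at 24 h and 13937 over both times. Comparisons within a time used its 16 libraries, those between times all 32. P-values were adjusted by Benjamini-Hochberg over all genes tested and called under 0.05. Alternatives were a pseudocount of 0.1, no filter, quantile normalization, only the groups compared, a replicate block, library quality weights, limma-voom on approximate fragments, leaving out each library and, chosen after seeing the data, leaving out the 6 libraries listed last in the table. The procedure was tested on simulated data, in which the share of false calls was above the nominal level, so calls close to the threshold are less certain than their adjusted p.

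Fragments were inferred from the FPKM steps of genes with a single transcript: 92.28% of 23614 low values were whole within 0.05 fragment. For the members the transcript length that gave the most whole values within 0.1 fragment was used; it left 50.0% whole for Ptges3 and 75.0% for Pla2g4a, whose fragment numbers are approximate.

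All 7 members are named. From the pathway lists, up to 6 genes per comparison with the smallest adjusted p among those past the threshold are named, the others as counts; levels of the receptors and of Ptgis, Akr1b3, Hpgds, Tbxas1 and Hpgd were added after their values were seen. The members, lists and marker genes were chosen with earlier results of these data known. No p is given for Ptgs2 in any comparison, including those between times, because the same libraries had singled it out. Promoter sequences are RefSeq's (GRCm38.p6), matched by symbol for all 7 members.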

Additional observations from a re-analysis of the deposited data

Results flagged for a closer look

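In 8 of 51 combinations of a member and a group, 1 library lay apart from the other 3 relative to the range of the group. Chance gives about 1 in 20 for values that vary continuously. A group with only 1 library above 0, as for Ptgds, always meets this rule, so the count cannot be read against that share. For Ptgs2 this was Control replicate 3 at 24 h, at 213.82 FPKM against 234.95 to 238.71 in the others. That library still lay above all PBM libraries of that time. Its group scattered by 5.15% of the mean, less than the 8.48% that fragment counting alone would give. For Pla2g4a it was Control replicate 1 at 24 h, at 103.59 FPKM against 61.18 to 65.63. For Ptges2 it was Control replicate 1 at 4 h (19.79 FPKM against 1.45 to 4.39), LPS replicate 2 at 24 h (4.35 FPKM against 5.64 to 5.90) and PBM replicate 3 at 24 h (4.41 FPKM against 1.40 to 1.46). For Ptgds it was LPS replicate 2 at 4 h (8.97 FPKM), PBM replicate 3 at 4 h (9.59 FPKM) and PBM replicate 2 at 24 h (9.41 FPKM), with the other 3 libraries listed at 0 in each case. The Ptgds values and those of Ptges2 at 24 h differ from the others by a few fragments or fewer.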

How the results depend on the processing

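Ptgs2 kept its direction in the LPS comparisons under every alternative run, with log2 fold changes of 1.40 to 1.60 at 4 h and 1.50 to 1.64 at 24 h between LPS and Control cells and 1.71 to 1.83 at 4 h and 2.68 to 2.84 at 24 h between LPS+PBM and PBM cells, and between PBM and Control cells at 24 h, with -1.08 to -0.95. The Ptges calls with LPS, with and without light, held in all 16 alternatives of each comparison. For LPS+PBM cells at 24 h against 4 h, the count of members past the threshold was 0 without the 6 last-listed libraries (Ptges adjusted p = 0.0518) and ranged over 0 to 1 when 1 library was left out; the cause was not tested. Akr1c18 and Acsl4 kept their direction but lost their calls in 8 to 10 of 16 alternatives, except Akr1c18 between times in LPS cells, which kept it in 15; Mgst1 kept its call in 12. With the replicate number as a block, no member count changed (1 member between LPS and Control cells at 4 h), and 276 genes passed there in place of 295; same-numbered libraries did not deviate together (r of -0.02 to 0.03 over 48 pairs), so the numbers give no pairing. Whole-table counts moved more: between LPS+PBM and PBM cells at 24 h 180 genes passed without the 6 last-listed libraries in place of 359, between LPS and Control cells at 24 h 159 in place of 340, and between times in LPS cells 88 without those libraries, 110 in the groups compared alone and 312 by limma-voom in place of 186. Between times it was 44 of PBM cells' genes and 38 of Control cells' genes in the groups compared alone, in place of 147 and 155, and in LPS+PBM cells 264 in the groups compared alone and 258 without the 6 libraries, in place of 420. The LPS difference between times had 52 and 42 under those settings in place of 86. Between PBM and Control cells 2 genes passed at 4 h and 7 at 24 h in the groups compared alone, and 9 at 24 h without the 6 libraries, in place of 6 and 15. Between LPS+PBM and LPS cells limma-voom passed 10 at 4 h and 2 at 24 h in place of 0 and 1. The interaction had 1 at each time without the 6 libraries in place of 4 and 7, and 4 at 24 h with the block. Quantile normalization moved the median of all genes between LPS+PBM and PBM cells at 4 h to -0.05, against -0.16 without it. Depth limits Ptgs1, Ptges2, Ptgds and the receptors, for which changes of a few-fold could not be seen.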
